A study of Mus musculus with 6 samples.

Results

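Integrins are cell surface receptors made of 1 alpha and 1 beta chain, and through them cells hold on to the surrounding matrix and sense it. The alpha chain largely decides what is bound: α1, α2 and α11 take collagen, α6 and α7 take laminin, and α5, α8 and αv recognise the RGD motif of proteins such as fibronectin, nephronectin and vitronectin. The β1 chain joins with each of these alpha chains, and β3 is a partner of αv. In bone marrow, matrix adhesion through such receptors anchors the stromal cells that support blood cell growth.

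The genes described here are 10 matrix-binding integrin chains, Itga1, Itga2, Itga11, Itga6, Itga7, Itga5, Itga8, Itgav, Itgb1 and Itgb3. They were picked by symbol, as the probe sets that a platform table assigns to exactly 1 of them, which gave 10 probe sets, 1 per gene, of 28853 on the array. The choice was made with results of these arrays known: Itga1 was already known to be higher with the inhibitor, and the set was built around it. MEKi minus diluent values of the 10 genes are therefore a description with no test. No gene was lost to a filter, since none was applied.

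The 2 groups were the MEKi cultures of MS5, a mouse stromal line, kept for 7 days in 1 μM PD184352, an inhibitor of the kinase MEK, and diluent cultures that received DMSO alone for as long. There were 3 independent experiments (named series in the labels), each with 1 MEKi and 1 diluent culture, and each culture gave total RNA for 1 Affymetrix mouse Gene 1.0 ST array. Both groups were of 1 cell line, MS5, profiled without leukaemic cells, and per the study the experiments were carried out and processed apart from each other. The values are log2 intensities after RMA normalization, and 1 unit is a doubling.

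The arrays had medians between 6.29 and 6.38. Of the 10 stromal markers checked, none passed the limma test. Col1a1, Pdgfra, Pdgfrb and Vim averaged 11.06, 11.61, 11.99 and 13.23 in MEKi cultures and 10.95, 11.68, 11.95 and 13.25 in diluent cultures, while Thy1 averaged 5.60 in MEKi cultures and 5.62 in diluent cultures, below the median of all probe sets. Vcam1, an adhesion molecule of marrow stroma, had 9.24, 9.52 and 9.24 in MEKi cultures, against 9.98, 10.00 and 9.73 in diluent cultures. All MEKi cultures thus lay below all diluent cultures, as for 2.17% of all probe sets (−0.57 in the fit, adjusted p = 0.0942 from limma). Cxcl12 and Eng each had 0.22 in the fit and were higher with MEKi in all 3 experiments (adjusted p = 0.445 and 0.398 from limma), and the part of these stromal markers in the integrin values was not tested. The 5 leukocyte and the 5 endothelial markers measured all lay below that level too. Of 16 genes known as outputs of ERK, the kinase that MEK activates, 0 rose and 2 fell when limma p values were adjusted at 0.05, a limit that 0.159% of all 28853 probe sets passed. Both, Ccnd1 (−1.32, adjusted p = 0.03 from limma) and Fosl1 (−0.81, adjusted p = 0.0319 from limma), were known from earlier results, and without experiment 2 the adjusted p values from limma were 0.131 and 0.14 (0.103 for Fosl1 without experiment 1). Neither was called with the experiment as a random block with an estimated correlation (adjusted p = 0.377 and 0.497 from limma), without the experiment term (adjusted p near 1) or after centring (adjusted p = 0.0508 and 0.0523). The median of the list was −0.41, and 11 of its members were lower in all 3 experiments, as were 7.98% of all probe sets. The median of all probe sets was 0.037, and it was 0.10 in experiment 2 alone.

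The promoter sequences of Itga1, Itga2 and Itgb1 are shown because Itga1 and Itga2 are neighbours on chromosome 13 and had unlike values, while Itgb1 encodes the beta chain that both their products need. That of Itga11, also a collagen receptor gene, is not shown. Each run holds the 250 bases before the gene's start in RefSeq (GRCm38.p6), 5′ to 3′ on the gene's strand, with the letters AGGAAG of the ETS-type motif, on either strand, in capitals. ETS factors are among the transcription factors that ERK phosphorylates.
Itga1, chr13:115101965-115102214, minus strand: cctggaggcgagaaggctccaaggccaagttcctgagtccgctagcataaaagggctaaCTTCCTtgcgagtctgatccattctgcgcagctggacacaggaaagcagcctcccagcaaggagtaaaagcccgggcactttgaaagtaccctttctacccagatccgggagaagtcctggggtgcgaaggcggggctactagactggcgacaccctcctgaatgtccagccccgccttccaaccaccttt
Itga2, chr13:114932101-114932350, minus strand: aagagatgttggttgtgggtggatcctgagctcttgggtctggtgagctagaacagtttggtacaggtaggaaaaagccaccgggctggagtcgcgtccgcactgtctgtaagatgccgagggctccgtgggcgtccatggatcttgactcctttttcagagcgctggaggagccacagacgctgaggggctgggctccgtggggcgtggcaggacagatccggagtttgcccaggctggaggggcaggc
Itgb1, chr8:128685404-128685653, plus strand: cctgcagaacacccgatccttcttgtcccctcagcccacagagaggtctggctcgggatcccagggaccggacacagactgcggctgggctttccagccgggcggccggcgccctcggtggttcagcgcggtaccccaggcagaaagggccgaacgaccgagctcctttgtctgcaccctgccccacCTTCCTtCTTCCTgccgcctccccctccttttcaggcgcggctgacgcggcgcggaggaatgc

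The Itga1 window held 1 match to AGGAAG, starting 191 bases before the gene's start, and the Itgb1 window held 2, starting 63 and 56 bases before it. The Itga2 window held none, while that of Itga11, not shown, held a match starting 39 bases before the gene's start. Promoters of 7 of the 10 genes were found in the table used (not Itga6, Itga7 and Itgb3), and the windows of 4 of them, Itga1, Itga11, Itgav and Itgb1, held the motif, against 29.5% of all 32851 promoter windows of this length. The AP-1 motif TGANTCA was in 0 of the 7 windows (6.75% of all), and the CArG box, to which SRF binds, in 0 of the 7 (1.47% of all), both strands being searched for each. A match of letters is not a binding site. The sequences to show were picked with the expression values known, and the counts were not tested against those values.

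Among the collagen receptor genes of this set, Itga1 had the largest fitted change, and the set was built around that change. Its values were 8.95, 9.52 and 9.10 in the MEKi cultures of experiments 1, 2 and 3, against 8.12, 8.87 and 8.12 in the diluent cultures. All 3 MEKi cultures lay above all 3 diluent cultures, which held for 5.69% of all probe sets (2.17% had all MEKi cultures below, 7.86% did not overlap either way) and for none of the other 9 genes. The mean was 9.19 ± 0.30 with MEKi and 8.37 ± 0.43 with diluent (SD, n = 3 each), a log2 fold change of 0.82 (standard error 0.087), or 1.77 times the diluent level. Within experiments 1, 2 and 3 the MEKi culture had 1.78, 1.58 and 1.98 times the level of its diluent partner. Itga1 was the 1 gene of the 10 that was at least 1.5-fold apart in every experiment (0.146% of all probe sets), and the 1 gene with an adjusted p under 0.05 from limma (0.104% of all probe sets passed upward, 0.0555% downward). Both counts, and the lack of overlap between the groups, restate how it was chosen. That call was not made with any 1 experiment left out, nor without the experiment term or with it as a random block, nor after centring or a further quantile normalization, while the value stayed between 0.74 and 0.91 with 1 experiment left out.

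Itga2, which encodes the alpha chain of another collagen receptor, had values of 4.98, 4.91 and 5.11 in MEKi cultures, against 4.85, 4.95 and 4.88 in diluent cultures. The groups overlapped, and the fitted change was 0.10 (standard error 0.083). Itga11, whose product binds fibrillar collagen on mesenchymal cells, had 5.40, 5.60 and 5.46 with MEKi and 5.32, 5.41 and 5.49 with diluent. The experiments did not share a direction for either gene, and the change of Itga11 was 0.079 (standard error 0.079). Both probe sets, like that of Itga8, had means below the median of all probe sets.

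Pelo, which encodes a ribosome rescue factor, lies inside the span of Itga1 and was looked up for that position. Pelo had 7.03, 7.11 and 7.04 in MEKi cultures, against 6.95, 7.03 and 6.93 in diluent cultures. It was higher with MEKi in all 3 experiments, as were 23.8% of all probe sets, by 0.088 on the fitted log2 scale (standard error 0.072). Of the 7 other protein-coding genes that flank Itga1 in the RefSeq order and were measured, Ndufs4, Fst, Mocs2, Itga2, Pelo, Isl1 and Parp8, the largest fitted change was that of Mocs2, a gene of molybdenum cofactor synthesis, at 0.20 (adjusted p = 0.443 from limma).

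**Figure D1:**
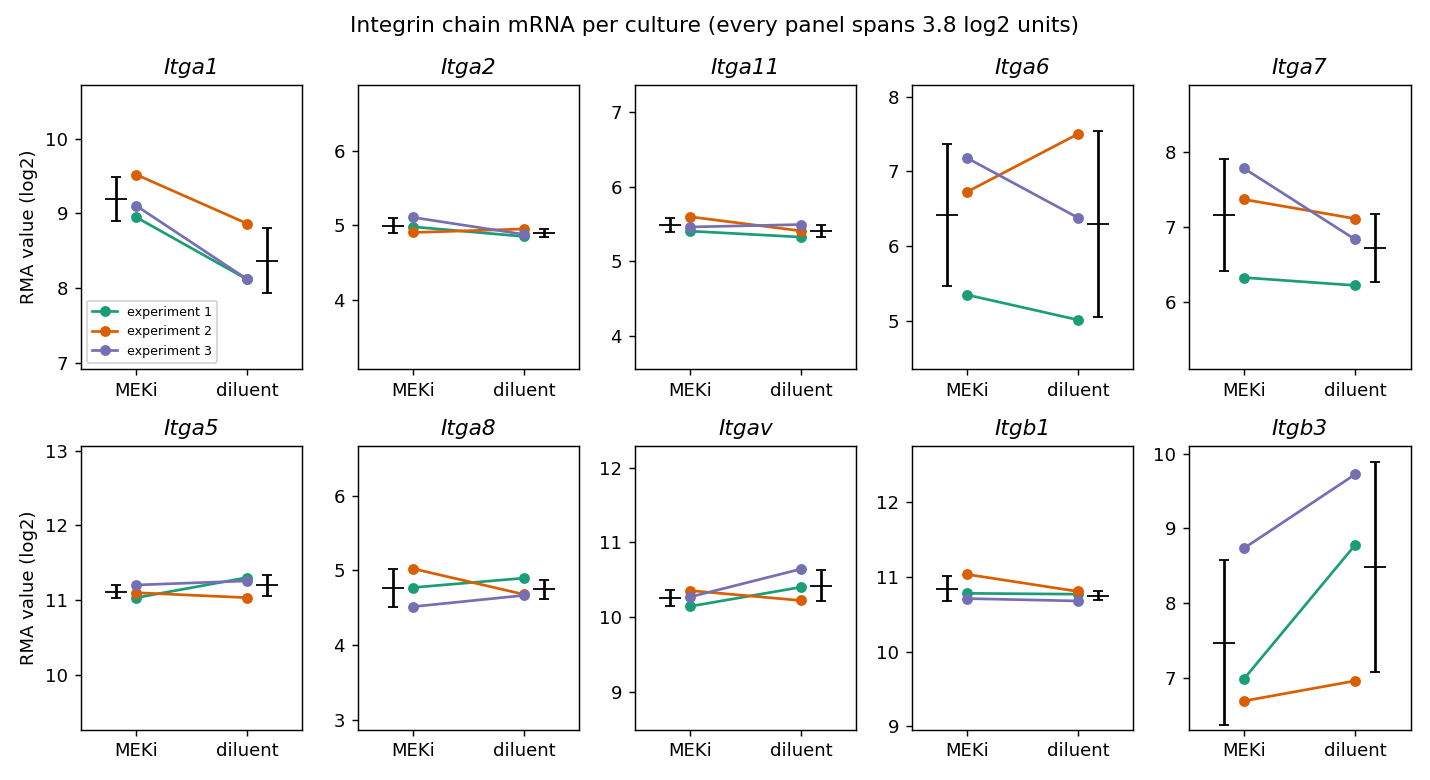
RMA values on the log2 scale (y axis, each panel spanning the same width) of the 10 integrin chains in MEKi and diluent cultures (x axis); points are single arrays, a coloured line links the pair grown in 1 experiment, and black bars are the mean ± SD of 3 cultures. For Itga1 the MEKi points, from 8.95 to 9.52, all lie above the diluent points, from 8.12 to 8.87, while for Itgb3 each line drops to the MEKi side.

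The laminin receptor chains had wide values. Itga7, whose product is the laminin receptor of muscle, had 6.33, 7.37 and 7.79 in MEKi cultures, against 6.22, 7.11 and 6.84 in diluent cultures. Each MEKi culture was above its partner, by 0.10, 0.26 and 0.95 in experiments 1, 2 and 3, so that most of the fitted change of 0.44 (standard error 0.155) came from experiment 3; without that experiment it was 0.18. Itga6, which encodes a laminin receptor chain of many epithelial and stem cells, had 5.35, 6.73 and 7.18 with MEKi and 5.01, 7.50 and 6.38 with diluent. Both Itga6 values of experiment 1 lay below the medians of their arrays (6.29 each). The experiments disagreed in direction: the differences were 0.34, −0.77 and 0.80, and the fitted change of 0.12 had a standard error of 0.257. It was −0.22 without experiment 3 and 0.57 without experiment 2.

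The RGD receptor alpha chains had fitted changes between −0.17 and 0.022, and MEKi and diluent values overlapped for each of them. Itga5, the fibronectin receptor chain, had 11.03, 11.10 and 11.20 in MEKi cultures, against 11.30, 11.03 and 11.26 in diluent cultures, a fitted change of −0.086 (standard error 0.088). Itgav, the chain shared by the vitronectin receptors, had 10.15, 10.36 and 10.27 with MEKi and 10.40, 10.22 and 10.65 with diluent. Its differences were −0.26, 0.13 and −0.37, and the fitted change was −0.17 (standard error 0.108). Itga8, which encodes a nephronectin receptor chain, had 4.77, 5.02 and 4.51 with MEKi and 4.90, 4.68 and 4.67 with diluent, and no direction was shared by the 3 experiments. Its fitted change of 0.022 (standard error 0.111) turned to −0.0097 once each array was centred on its median and to −0.013 after a further quantile normalization.

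The beta chains went apart. Itgb1, the common partner, had 10.78, 11.03 and 10.71 in MEKi cultures, against 10.77, 10.80 and 10.68 in diluent cultures. Every MEKi culture was above its partner, by 0.011, 0.23 and 0.032, and the fitted change was 0.091 (standard error 0.080), or 1.06 times the diluent level. Itgb3, the αv partner known from platelets, osteoclasts and growing vessels, had 6.99, 6.69 and 8.73 in MEKi cultures, against 8.77, 6.96 and 9.72 in diluent cultures. Each MEKi culture was below its partner (7.98% of all probe sets were lower in all 3 experiments), at 0.290, 0.830 and 0.505 times its level in experiments 1, 2 and 3. The fitted change of −1.01 was the largest in size of the 10, and so was the spread of its differences but for that of Itga6 (SD 0.76 for Itgb3 and 0.81 for Itga6). Without experiment 1 the value was −0.63, and without experiment 2 it was −1.39. The groups of arrays overlapped, since the MEKi culture of experiment 3 (8.73) and that of experiment 1 (6.99) were above the diluent culture of experiment 2 (6.96).

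**Figure D2:**
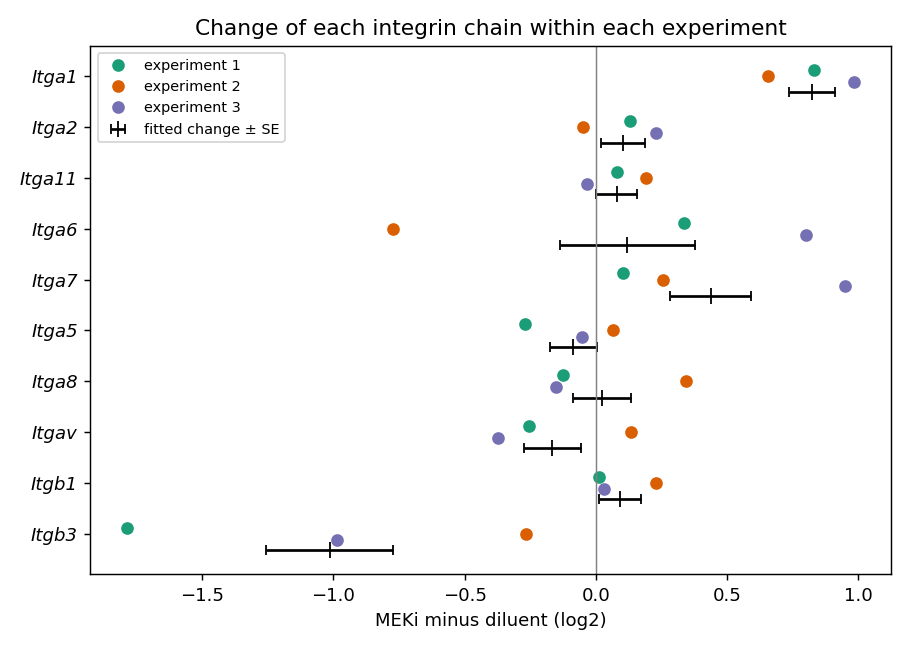
Difference of the MEKi from the diluent culture in log2 units (x axis) for the 10 integrin chains (y axis); each colour is 1 of the 3 experiments, and the black mark with its bar is the fitted change ± standard error from limma. The points of Itga1 lie between 0.66 and 0.98, those of Itgb3 between −1.79 and −0.27, and those of Itga6 on both sides of 0.

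Over the 10 genes the median change was 0.085, beside 0.037 for all probe sets. By experiment the median of the 10 was 0.045, 0.16 and −0.00026, against −0.0031, 0.10 and 0.014 for all probe sets. In 4 of the 10 the 3 experiments shared a direction, Itga1, Itga7 and Itgb1 upward and Itgb3 downward, where 31.8% of all probe sets did so. The chains thus gave no common direction: Itga1 and Itgb3 differed in sign, and the others lay between −0.17 and 0.44.

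The levels also differed between the experiments. This comparison was not used to choose the genes, but it shares its residual variance with the MEKi comparison, which was. An F test of the 3 experiments in the same limma fit, with both conditions in each, had an adjusted p under 0.05 for 4 of the 10 genes, Itga1, Itga6, Itga7 and Itgb3, where 7.69% of all probe sets passed. In a fit of the brighter probe sets alone, 2097 of 14427 passed, and so did 4 of the 7 of these genes found there. Itgb3 differed most, with experiment means of 7.88, 6.82 and 9.23 for experiments 1, 2 and 3, a range of 5.29-fold (adjusted p = 0.0112 from limma). The 2 cultures of experiment 2 were the lowest of their condition and those of experiment 3 the highest. Its diluent cultures alone spanned 6.79-fold, more than any within-experiment change of that gene.

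Itga6 had experiment means of 5.18, 7.11 and 6.78 (adjusted p = 0.0234 from limma), the range being 3.82-fold, and both cultures of experiment 1 were low. Itga7 was low in the same experiment, with means of 6.27, 7.24 and 7.31 and a range of 2.05-fold (adjusted p = 0.0294 from limma). Itga1 was highest in experiment 2, with means of 8.53, 9.19 and 8.61 (adjusted p = 0.022 from limma). Its range of 0.66 on the log2 scale between experiments compares with a MEKi minus diluent difference of 0.82. The other 6 genes had ranges from 0.077 (Itga2) to 0.26 (Itga8) and did not pass, with adjusted p from 0.348 to 0.862 from limma. The call of Itga1 is not free of how the genes were chosen, since the F test divides by the residual variance of the MEKi comparison. Without the treatment term in the fit only Itga6 passed, and Itga1 had an adjusted p of 0.495 from limma. Culture and array handling cannot be told apart between the 3 experiments.

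**Figure D3:**
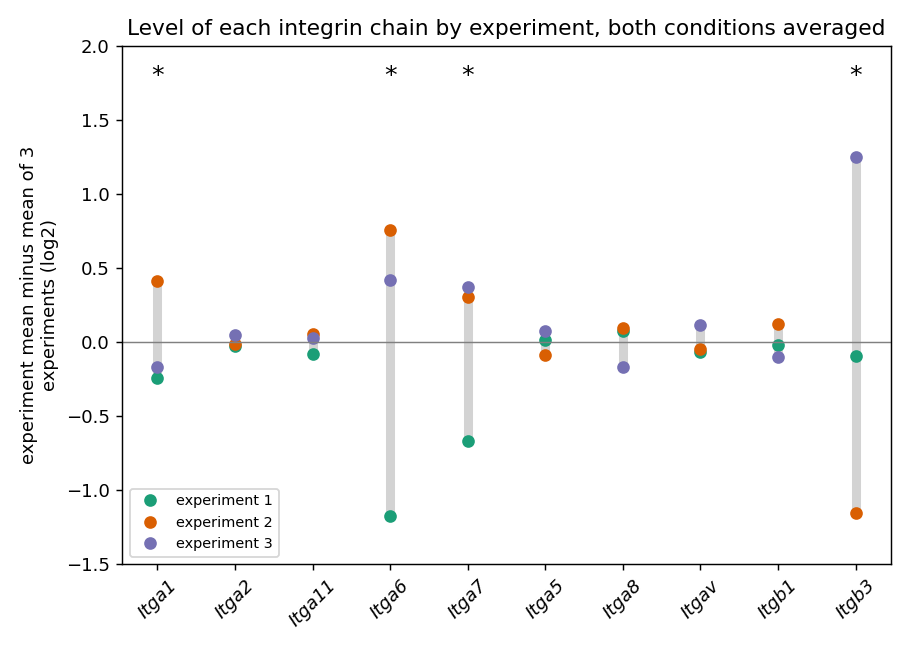
Mean of the MEKi and the diluent array of each experiment, minus the mean over the 3 experiments, on the log2 scale (y axis) for the 10 integrin chains (x axis); grey bars span the 3 experiments, and an asterisk marks an adjusted p under 0.05 from the limma F test. Itgb3 spans 2.40, Itga6 1.93, Itga7 1.04 and Itga1 0.66, and each of the other 6 spans at most 0.26.

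Markers of other cell types were summed on each array, and the sums were not tested against the integrin values. The summed level of 3 of 4 listed adipocyte markers, Adipoq, Plin1 and Fabp4, was 12.77, 13.56 and 13.74 in MEKi cultures of experiments 1, 2 and 3, against 12.07, 13.57 and 13.09 in diluent cultures, on the log2 scale. It was thus lowest in experiment 1, as were Itga6 and Itga7, and rested close to its diluent value in experiment 2. The summed level of 5 smooth muscle markers lay between 12.89 and 13.00 with MEKi and between 12.70 and 12.85 with diluent. These groups did not overlap, nor did those of 7.86% of all single probe sets. Acta2, smooth muscle actin, was the brightest of the 5 and weighs most in this sum, with 12.66, 12.58 and 12.65 in MEKi cultures, against 12.52, 12.41 and 12.33 in diluent cultures. In the fit Acta2 had 0.21, Tagln 0.42, Cnn1 0.38, Myh11 0.055 and Des −0.071, and the experiments shared a direction for Acta2 and Cnn1 only. None of these adipocyte and smooth muscle genes passed the limma test singly. The part of these cell types in the integrin values was not tested. In bulk RNA, fewer cells of a kind cannot be told apart from less RNA per cell. The sums of the 5 leukocyte markers (7.74 to 7.86 with MEKi, 7.75 to 7.80 with diluent), the 5 endothelial markers (7.40 to 7.60 with MEKi, 7.40 to 7.49 with diluent) and the 4 epithelial markers (7.95 to 7.98 with MEKi, 7.92 to 8.06 with diluent) overlapped between the groups.

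None of the other 16 integrin chains measured was called in either direction by limma, and their median was 0.0025. Their fitted changes ran from −0.36 to 0.23, and the values of Itga1, Itga7 and Itgb3 lay outside that range. For Itga1 this restates how it was chosen. Only 6 of these 16 chains had means at or above the median of all probe sets. Itgb2, the beta chain of leukocyte integrins, had the largest change in size at −0.36 (standard error 0.089, adjusted p = 0.262 from limma), and it was lower in all 3 experiments. Itga3, a laminin receptor chain, had a value of 0.23 (standard error 0.079, adjusted p = 0.413 from limma).

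Among the ligands, 0 of 20 collagen chains and 0 of 10 laminin chains passed. Col5a2, a chain of a fibril-forming collagen, had the largest change of its list at 0.30 (adjusted p = 0.379 from limma), and the medians were 0.043 for the collagens and 0.076 for the laminins. Lamb2, a laminin beta chain, had a value of 0.29 (adjusted p = 0.503 from limma). Of 17 ligands of RGD-binding and related integrins, 2 rose and 0 fell at the adjusted limit, which 0.104% of all probe sets passed upward and 0.0555% downward. Fbln5, an elastic fibre protein with an RGD motif, had 1.13 (standard error 0.113, adjusted p = 0.0319 from limma) and Thbs1, thrombospondin 1, had 0.64 (standard error 0.079, adjusted p = 0.0489 from limma); both were known from the earlier results. Without experiment 2 neither was called, the adjusted p values from limma being 0.131 for Fbln5 and 0.17 for Thbs1, and Thbs1 was not called without experiment 1 (0.105) or 3 (0.115) either. Nor was Thbs1 called in a fit of the brighter probe sets alone (adjusted p = 0.0512 from limma). Without the experiment term in the fit both had an adjusted p near 1 from limma, and neither was called with a random block with an estimated correlation (adjusted p = 0.529 and 0.513 from limma), centring or a further quantile normalization. Postn, a matrix protein bound by αv integrins, had −0.62 and Ccn2, a matricellular growth regulator, −0.41, and neither passed (adjusted p = 0.32 and 0.199 from limma), although both were lower in all 3 experiments. Fn1, the fibronectin gene, had 13.36, 13.30 and 13.28 with MEKi and 13.30, 13.22 and 13.22 with diluent, or 0.065 in the fit (adjusted p = 0.814 from limma).

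Inside the cell, talins and kindlins switch integrins on, and proteins such as vinculin tie them to actin. None of the 19 activators and actin linkers measured passed (median 0.049). Tln2, the second talin, came closest: each MEKi culture was above its partner, by 0.52, 0.57 and 0.58, which gave 0.56 in the fit (standard error 0.072, with an adjusted p of 0.0604 from limma). Tln1, the other talin, had 0.049 in the fit (adjusted p = 0.905 from limma). Parvb, a parvin that links integrin-bound kinase to actin, had −0.42 (adjusted p = 0.183 from limma) and was lower in all 3 experiments. Flnc, a filamin, had 0.25 (adjusted p = 0.365 from limma).

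The signalling proteins of adhesions also gave no call, with 0 of 19 passing and a median of 0.051. Rapgef1 had the largest change in size of this list at −0.23 (adjusted p = 0.62 from limma), and Ptk2b had 0.17 (adjusted p = 0.745 from limma). The experiments did not share a direction for Rapgef1 or for Ptk2b. Rap1a, a small GTPase upstream of talin, had a value of 0.22 (adjusted p = 0.397 from limma), and Itgb1bp1, a binder of the β1 tail that restrains it, one of 0.15 (adjusted p = 0.614 from limma). Of 12 other matrix receptors 0 passed, at a median of −0.056. Sdc4, a syndecan that works with fibronectin-bound integrins, had −0.50 (adjusted p = 0.378 from limma), and Cd44, the hyaluronan receptor, −0.25 (adjusted p = 0.35 from limma), both being lower in all 3 experiments. Cd36 went the other way at 0.27 (adjusted p = 0.757 from limma), and was higher in 2 of the 3 experiments. Among 10 tetraspanins and membrane partners 0 passed, with Cav1, caveolin 1, at 0.48 (adjusted p = 0.365 from limma) and Cd82, a tetraspanin, at −0.26 (adjusted p = 0.374 from limma). At an unadjusted p under 0.05, 2853 of all probe sets passed in limma.

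**Figure D4:**
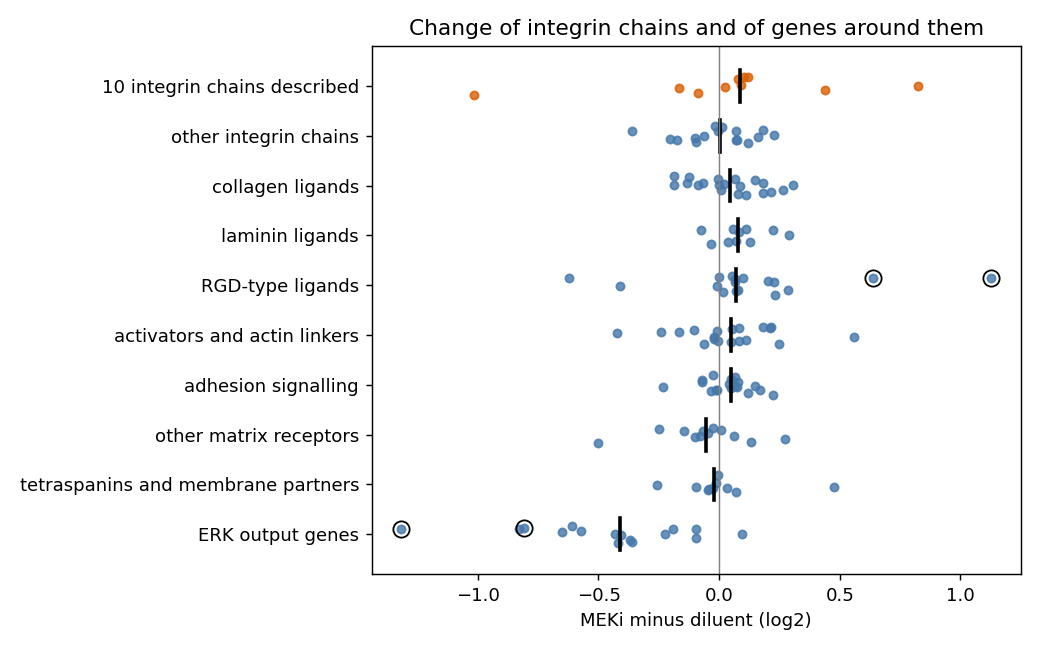
Fitted MEKi minus diluent change in log2 units (x axis) of the 10 integrin chains (orange) and of the genes of 9 lists around them (blue, y axis, position within a row is arbitrary); black lines are medians, and circles mark listed genes with an adjusted p under 0.05 from limma. Circles are seen on Fbln5 and Thbs1 among the ligands and on Ccnd1 and Fosl1 among the ERK output genes.

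The genes whose values were most like those of Itga1 over the 6 arrays were Entr1, Atp6v0a4, Ccdc71, Acadm and Uros, with Pearson's r from 0.994 to 0.997 among 19928 named genes. Acadm, an enzyme of fatty acid oxidation, had 12.24, 12.42 and 12.23 in MEKi cultures, against 11.87, 12.17 and 11.89 in diluent cultures. Like Itga1, it was highest in experiment 2 in both conditions and higher with MEKi in each experiment. Its fitted change was 0.32, and those of the other 4 were from 0.14 to 0.27, all smaller than the 0.82 of Itga1. An r above 0.9 was reached by 525 of these genes, and since the 6 arrays share 2 conditions and 3 experiments, the likeness carries no test.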

How the data were processed

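The authors normalized mouse Gene 1.0 ST intensities with RMA (background correction, quantile normalization, summary per probe set) and deposited log2 values. They did statistics in Partek; versions and genome build are not given in the sources used here. The deposited log2 values were used without filter, and 0 columns were left out. A GEO platform table named probe sets; 21789 name 1 gene, 1621 several and 5443 none. For list genes with several probe sets the brightest was taken.

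Conditions were compared by limma 3.58.1 (lmFit, eBayes) under R 4.3.3, the experiment being a block, with Benjamini-Hochberg adjustment over all 28853 probe sets. This left 2 residual degrees of freedom, and the prior added 5.17. The labels put 1 culture of each condition in each experiment, and the numbers were taken to pair the cultures, since deviations from the group means had an r of 0.81, 0.59 and 0.62 within experiments 1, 2 and 3, while unmatched pairs ran from −0.61 to 0.21. Deviations within a group cancel out, so positive matched values push the unmatched ones down, and the latter add no separate support. The precision is limited by the 6 arrays.

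Members, lists and tests were chosen with earlier results of these data known. Named genes are the members, genes from the first 4 of each list (those past the threshold first, then by size of change) and the 5 most like Itga1. Not all of the first 4 of each list are given in the text. Fn1, Tln1, the marker genes and the neighbours of Itga1 were named outside this rule, after their values were seen, for their role or position. Listed genes that the platform table did not name alone were not analysed here. In 10 simulated data sets with 200 changed probe sets each, the MEKi comparison called 60.9% of those changed 1.5-fold and 97.2% of those changed 2-fold, with 4.66% false calls. For the difference between experiments, with only experiment 2 shifted and no other experiment effect, it called 14.9% and 89.9%, with 5.37% false. Errors were drawn as independent normal values with variances from the fitted prior, so these rates hold under the assumptions of the model only. Promoters are RefSeq's (GRCm38.p6). Figures used matplotlib 3.10.9 in Python 3.11.15.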

Additional observations from a re-analysis of the deposited data

How the results depend on the processing

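Dropping or randomising the block, the trend and the brighter-only filter leave a fitted change as it is by construction. Of the 10 integrin chains, those with another sign under an alternative were Itga8 with quantile normalization, centring, array weights or without experiment 2, Itga5 without experiment 1 (0.0061) and Itga6 without experiment 3, and none of these was a called value. The call of Itga1 was made in 3 of 10 alternative fits (brighter probe sets, array weights, and a robust prior with an intensity trend), and Itga1 was between 0.74 and 0.91 with 1 experiment left out. Over all probe sets the count of 46 (30 higher, 16 lower) became 0 if the replicate block was dropped or made random and after centring each array on its median, 15 after a further quantile normalization (4 higher, 11 lower), 25 among brighter probe sets, 115 with an intensity trend and robust prior, and 155 at an unadjusted p of at most 0.05 and at least 1.5-fold in limma (75 higher, 80 lower), against 66 at these limits in an ordinary analysis of variance (39 higher, 27 lower). The methods print this p limit as 0.05%; read so, an alternative chosen after seeing the data, 69 passed in limma (39 higher, 30 lower) and 2 in the analysis of variance, with 6 and 0 of the 139 listed genes. Leaving out 1 experiment gave 0 to 37, the count being 14 without experiment 1 and 0 without experiment 2. Of the 139 listed genes, the count of 4 became 0 without the block, with a random block and with centring, 2 with quantile normalization, 7 with the trend and with array weights, and 8 at those limits in limma (6 in the analysis of variance); leaving out 1 experiment gave 0 to 3. Of 357 values under alternatives of the 36 genes that are the first 4 of their lists, 26 changed a call and 0 reversed one. Between experiments, 2218 probe sets passed, against 1343 without the treatment term, where 1 of the 10 genes passed, and 3564 with the trend. With the trend Itga6 did not pass (adjusted p = 0.0599 from limma). The cause of these shifts was not tested. Files held no detection calls, so a floor for dim probe sets could not be set.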
